A study of Mus musculus with 42 samples.

Results

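The expression of 3 genes that make up a chemokine system was followed through the differentiation of mouse embryonic stem cells (mESCs) to anterior definitive endoderm (ADE). The genes were Cxcr4, Cxcl12 and Ackr3, 3 of the 20972 genes with a symbol on the array. They were taken by name, and all 4 probes whose RefSeq accession belongs to them were used, 1 each for Cxcr4 and Ackr3 and 2 for Cxcl12. Where a gene had more than 1 probe the brightest was used and the other is named. RNA was hybridised to 42 Agilent 1-colour arrays, 3 for each of 14 groups, and every level given is the deposited, normalised log2 intensity of a probe. All cells came from a single dual reporter mESC line (B6), in which GFP was knocked in to Gsc, a gene of the primitive streak and mesendoderm, and RedStar to Hhex, a gene of the definitive endoderm. The 11 untreated groups were ESCs, unsorted cells of day 2 (d2), cells sorted for absence or presence of GFP at d3 (G- and G+) and d4 (G- and G+), cells with absent, low or high GFP at d5 (G-, Glow and Ghigh) and cells with high GFP without or with RedStar at d6 (G+H- and G+H+). The other 3 groups were d6 cultures, for which the labels name no sort: Control with DMSO alone, ADE_EPZ with DMSO on the ESCs and 2.5 µM EPZ6438 during differentiation, and ES_EPZ with EPZ6438 on the ESCs and DMSO during differentiation. EPZ6438 inhibits EZH2, the enzyme of Polycomb Repressive Complex 2 (PRC2). The 3 arrays of a group came from separate experiments. As the cell line was a single one, the spread between arrays does not cover differences between lines.

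CXCL12, also called SDF-1, is a secreted chemokine that cells follow as a guidance cue. CXCR4 is its signalling receptor, which couples to inhibitory G proteins and drives directed migration, and it is widely used as a surface marker of definitive endoderm. ACKR3, once named CXCR7, is an atypical receptor that binds the same ligand, recruits arrestins rather than G proteins and removes the ligand from the surroundings of the cell. In vertebrate gastrulation the system is known for its part in the movement of endoderm and mesoderm.

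The 250 bases before the RefSeq start of each gene are shown so that a reader can set the start regions side by side. Whether these stretches have a part in the levels of the genes was not tested. Sequences are from RefSeq (GRCm38.p6), 5′ to 3′ on the strand of the gene, at chr1:128592300-128592549 on the minus strand for Cxcr4, chr6:117168285-117168534 on the plus strand for Cxcl12 and chr1:90203730-90203979 on the plus strand for Ackr3, and all of them lie before the transcript. Capitals mark each match, on either strand, to the TATA box letters TATAAA or the GC box letters GGGCGG.
Cxcr4: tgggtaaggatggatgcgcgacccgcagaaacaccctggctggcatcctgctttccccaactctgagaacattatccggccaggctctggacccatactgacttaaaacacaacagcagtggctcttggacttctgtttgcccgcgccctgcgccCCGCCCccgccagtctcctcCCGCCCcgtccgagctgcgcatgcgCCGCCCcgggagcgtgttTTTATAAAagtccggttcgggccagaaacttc
Cxcl12: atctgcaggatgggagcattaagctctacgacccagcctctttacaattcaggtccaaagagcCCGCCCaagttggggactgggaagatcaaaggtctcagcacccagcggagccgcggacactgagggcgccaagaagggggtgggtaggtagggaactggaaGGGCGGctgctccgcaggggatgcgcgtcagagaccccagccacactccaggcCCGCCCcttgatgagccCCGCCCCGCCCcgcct
Ackr3: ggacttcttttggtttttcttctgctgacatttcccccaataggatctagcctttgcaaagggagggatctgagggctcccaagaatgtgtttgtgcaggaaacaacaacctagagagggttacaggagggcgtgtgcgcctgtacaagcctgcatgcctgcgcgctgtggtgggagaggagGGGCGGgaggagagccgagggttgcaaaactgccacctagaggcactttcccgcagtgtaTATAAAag
TATAAA was found near the start of both receptor genes, first base 30 bases before the start for Cxcr4, where an overlapping match on the opposite strand begins 32 bases before it, and 8 bases before it for Ackr3. It was not found in the window of Cxcl12. Of 32851 start regions of the same length, 12.4% held it. GGGCGG had 3 matches for Cxcr4, 5 for Cxcl12, where the nearest pair to the start overlap, and 1 for Ackr3, and 32.7% of start regions held it. The window of Cxcr4 had 19 CpG dinucleotides and a GC content of 61.2%, that of Cxcl12 14 and 64.4%, and that of Ackr3 7 and 54.0%, beside medians of 6 and 52.4% over all start regions. Letters that fit known binding motifs were searched on both strands too and had 0 matches in the windows of the 3 genes. They were AACAAT for SOX factors, found in 9.42% of all start regions, AGATAA for GATA factors (9.99%), GTAAACA for FOX factors (3.17%), TCACACCT for T-box factors (1.12%) and ACGTG for hypoxia-inducible factors (16.6%). A match or its absence describes these letters only.

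Of the sorted genes, Gsc followed the labels in its mean levels, while Hhex differed little between the d6 populations. Gsc, the reporter locus of the GFP sort, had a mean log2 level of 4.96 in ESCs, where 0 of 3 arrays were well above background by the scanner software, and it was at 8.23 in the G- and 11.78 in the G+ cells of d3 and at 13.32 in d6 G+H+. Hhex rose by 5.13 (SE 0.40, adjusted p = 2.79e-12) from ESCs to d6 G+H+, but its levels of 12.17 in G+H- and 12.63 in G+H+ differed little. All 4 pluripotency markers examined fell and all 4 markers of definitive and anterior endoderm rose from ESCs to d6 G+H+, by medians of -5.74 and 7.93 on the log2 scale. The arrays had 24504 to 40428 of 55681 probes well above background and 0 saturated spots. Differences are limma log2 differences over all 42 arrays, and a difference was called at a Benjamini-Hochberg adjusted p of at most 0.01 and a size of at least 1.5.

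Cxcr4, the signalling receptor, was near background at the start and high in all populations sorted for Gsc. Its log2 levels on the 3 arrays were 4.75, 4.53 and 5.07 in ESCs, where 0 of 3 arrays were well above background, and 4.81, 4.73 and 4.96 in d2 cells, where 1 of 3 was. Levels were 7.41, 9.0 and 8.33 in d3 G+ and 9.56, 9.15 and 9.19 in d4 G+. They ended at 10.12, 10.02 and 10.10 in d5 Ghigh, at 10.12, 10.16 and 10.06 in d6 G+H- and at 10.11, 10.12 and 10.40 in d6 G+H+. Every G+ array thus lay above every ESC and d2 array, and the last 3 groups overlapped. Against ESCs the rise was at least 10.7-fold at d3 G+ (log2 difference 3.46, SE 0.40, adjusted p = 4.25e-08), at least 22.1-fold at d4 G+ and at least 41.6-fold at d6 G+H+ (5.43, SE 0.40, adjusted p = 8.94e-13), the folds being bounds against the dimmest probes above background on the ESC arrays. In bulk RNA a larger share of cells with the transcript and more transcript per cell cannot be told apart.

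In the G- cells Cxcr4 rose later. Its levels were 6.20, 5.37 and 5.29 at d3, 6.90, 6.43 and 5.95 at d4 and 9.77, 8.23 and 6.99 at d5. The d3 G- arrays lay above all ESC arrays but by a mean of 0.84, which did not pass the threshold (SE 0.40, adjusted p = 0.247). At d4 the difference from ESCs was 1.64 (SE 0.40, adjusted p = 0.00522), at least 3.02-fold, and at d5 3.55 (SE 0.40, adjusted p = 4.94e-08), at least 11.3-fold. The call at d4 was lost when ESC replicate 1 or 2 or d4 G- replicate 1 or 2 was left out (1.41 to 1.64, adjusted p 0.0196 to 0.0494). It was also lost with a normexp offset of 50 (0.93, adjusted p = 0.096) and without background correction (1.16, adjusted p = 0.0335), while the call at d5 was lost with the compared groups alone in the fit (adjusted p = 0.0109). The step from d4 G- to d5 G- measured 1.91 (SE 0.40, adjusted p = 0.0455) and was called only without d5 G- replicate 3 (2.58, adjusted p = 0.000301). Ordered by mean, Cxcr4 was highest in d6 G+H+, then d6 G+H-, d5 Ghigh, d5 Glow, d4 G+, d5 G-, d3 G+, d4 G-, d3 G-, d2 and ESC. Of the neighbours in that order the arrays of d5 Ghigh and d5 Glow, of d3 G+ and d4 G-, and of d3 G- and d2 did not overlap, and the other neighbours did.

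Cxcl12, the ligand, followed another course. Its levels were 7.92, 8.16 and 7.53 in ESCs and 11.05, 11.18 and 11.18 in d2 cells, so all d2 arrays stood far above the ESC arrays. The rise at d2 was 9.60-fold (log2 difference 3.26, SE 0.37, adjusted p = 1.78e-07). On this probe the level of the G- cells then stayed in a narrow band, at 11.46, 10.98 and 10.84 at d3, 10.89, 11.34 and 10.76 at d4 and 11.16, 11.11 and 10.72 at d5. The G- differences from ESCs were 3.22, 3.12 and 3.12 (SE 0.37, adjusted p of at most 1.25e-07 for each).

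In the cells sorted for Gsc, Cxcl12 was lower again. Levels were 9.96, 8.97 and 9.03 in d3 G+, 8.63, 9.99 and 9.30 in d4 G+ and 8.51, 8.57 and 10.26 in d5 Ghigh. At d5 Glow they were 9.85, 9.92 and 10.76, between G- and Ghigh. By d6 they were 7.70, 7.60 and 8.44 in G+H- and 7.73, 7.26 and 8.29 in G+H+, a range that overlapped the ESC arrays. From d2 to d3 G+ Cxcl12 fell 3.52-fold (log2 difference -1.82, SE 0.37, adjusted p = 0.000395). It remained above ESCs by 1.45 at d3 G+ and 1.44 at d4 G+ (SE 0.37, adjusted p = 0.0038 and 0.00374), just under the size threshold. On the second probe these differences were 0.48 and 0.34 (SE 0.30, adjusted p = 0.387 and 0.622), and the d4 G+ arrays overlapped those of ESCs. On the brighter probe d5 Glow lay above ESCs by 2.31 (adjusted p = 8.83e-06, not called on the second probe). There d5 Ghigh, at 1.24, missed the thresholds for size and for p (adjusted p = 0.0123). With the slide as a fixed block d3 G+ and d4 G+ were called (1.71 and 1.56, adjusted p = 0.0025 and 0.00349), as they were under 75th percentile scaling (1.56 and 1.58), and d3 G+ was with a random slide block (1.57, adjusted p = 0.00132). The d3 G+ difference was also called without ESC replicate 2 or d3 G+ replicate 2 or 3 (1.59 to 1.62), that of d4 G+ without ESC replicate 2 or d4 G+ replicate 1 (1.58 and 1.77) and that of d5 Ghigh without its replicate 1 or 2 (1.54 and 1.51).

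At d6 G+H+ Cxcl12 differed from ESCs by -0.11 (95% interval -0.86 to 0.63, adjusted p = 0.938). The fall from d5 Ghigh to d6 was 1.2 in size for G+H- (log2 difference -1.2, SE 0.37, adjusted p = 0.0412) and -1.35 for G+H+ (adjusted p = 0.00953), both under the size threshold, although no d6 array reached the lowest d5 Ghigh array. The latter was called without d5 Ghigh replicate 1 or 2 or d6 G+H+ replicate 3 (-1.66 to -1.62). Of neighbours in the order of means (d2, d3 G-, d4 G-, d5 G-, d5 Glow, d3 G+, d4 G+, d5 Ghigh, d6 G+H-, ESC, d6 G+H+), d5 Ghigh and d6 G+H- alone did not overlap. The second Cxcl12 probe, which is dimmer and carries the accession of another transcript, rose at d2 and was lower in G+ than in G- as well but differed in its course, with a mean of 5.43 in ESCs, 8.34 in d2, 7.17 in d3 G- and 5.91 in d3 G+. In d6 G+H+ it was at 5.02, with 1 of 3 arrays above background. On it the d2 rise was 2.91 (SE 0.30, adjusted p = 4.19e-08), but d3 G- lay below d2 without overlap, by -1.17 (adjusted p = 0.0167), where the brighter probe was level. On it d5 Ghigh differed from ESCs by 0.05 (95% interval -0.56 to 0.67), and d5 Glow by 0.96 (1.95-fold, adjusted p = 0.0203), which was not called. The steps from d5 Ghigh to d6 G+H- and G+H+ were -0.50 and -0.47 on this probe (SE 0.30, adjusted p = 0.474 and 0.385), with overlapping arrays.

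Ackr3, the atypical receptor, dipped before it rose. Levels were 7.25, 7.34 and 7.60 in ESCs, 5.69, 5.90 and 6.13 in d2 cells and 7.0, 6.67 and 5.91 in d3 G-, with no overlap between ESCs and either group. The dip of -1.49 at d2 and that of -0.87 at d3 G- were not called (SE 0.49, adjusted p = 0.0677 and 0.37). Levels were 8.30, 7.31 and 7.20 in d3 G+, 9.98, 9.13 and 9.32 in d4 G+, 11.57, 10.97 and 10.13 in d5 Ghigh and 12.22, 11.34 and 10.37 in d5 Glow, the group with the highest mean. In G- cells they were 7.52, 7.19 and 7.18 at d4 and 11.81, 9.5 and 8.28 at d5. At d6 they settled at 9.94, 10.16 and 10.61 in G+H- and at 10.18, 10.13 and 10.58 in G+H+. The d3 populations thus spanned the ESC level, and from d4 G+ onwards all groups but d4 G- lay above it.

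Against ESCs Ackr3 was 4.23-fold higher in d4 G+ (log2 difference 2.08, SE 0.49, adjusted p = 0.00188), 15.1-fold in d5 Glow (3.91, adjusted p = 1.62e-07), 11.3-fold in d5 Ghigh (3.49, adjusted p = 1.19e-06) and 7.16- and 7.49-fold in d6 G+H- and G+H+ (2.84 and 2.90, adjusted p = 2.55e-05 and 1.61e-05). The d4 G+ call was lost without ESC replicate 1 or d4 G+ replicate 1 (2.01 and 1.83, adjusted p = 0.0108 and 0.0194). In d5 G- the difference was 2.47 (adjusted p = 0.000433), and the call was lost without d5 G- replicate 1 (1.49, adjusted p = 0.0134) and with the compared groups alone (adjusted p = 0.107). From d2 to d3 G+ Ackr3 rose on all arrays, by 1.70 (SE 0.49, adjusted p = 0.0158), which was called with the replicate number as a block (adjusted p = 0.00678). The step from d3 G+ to d4 G+ was 1.87 (adjusted p = 0.158), that from d4 G- to d5 G- 2.57 (adjusted p = 0.0295, called without d5 G- replicate 3 at 3.36), and those from d4 G+ to d5 Glow and Ghigh 1.83 and 1.41 (adjusted p = 0.0666 and 0.117). From d5 Ghigh to d6 the differences were -0.65 and -0.59, with 95% intervals of -1.66 to 0.35 and -1.60 to 0.42. In the order of means (d5 Glow, d5 Ghigh, d6 G+H+, d6 G+H-, d5 G-, d4 G+, d3 G+, ESC, d4 G-, d3 G-, d2) the neighbours d4 G+ and d3 G+, and d4 G- and d3 G-, did not overlap.

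**Figure D1:**
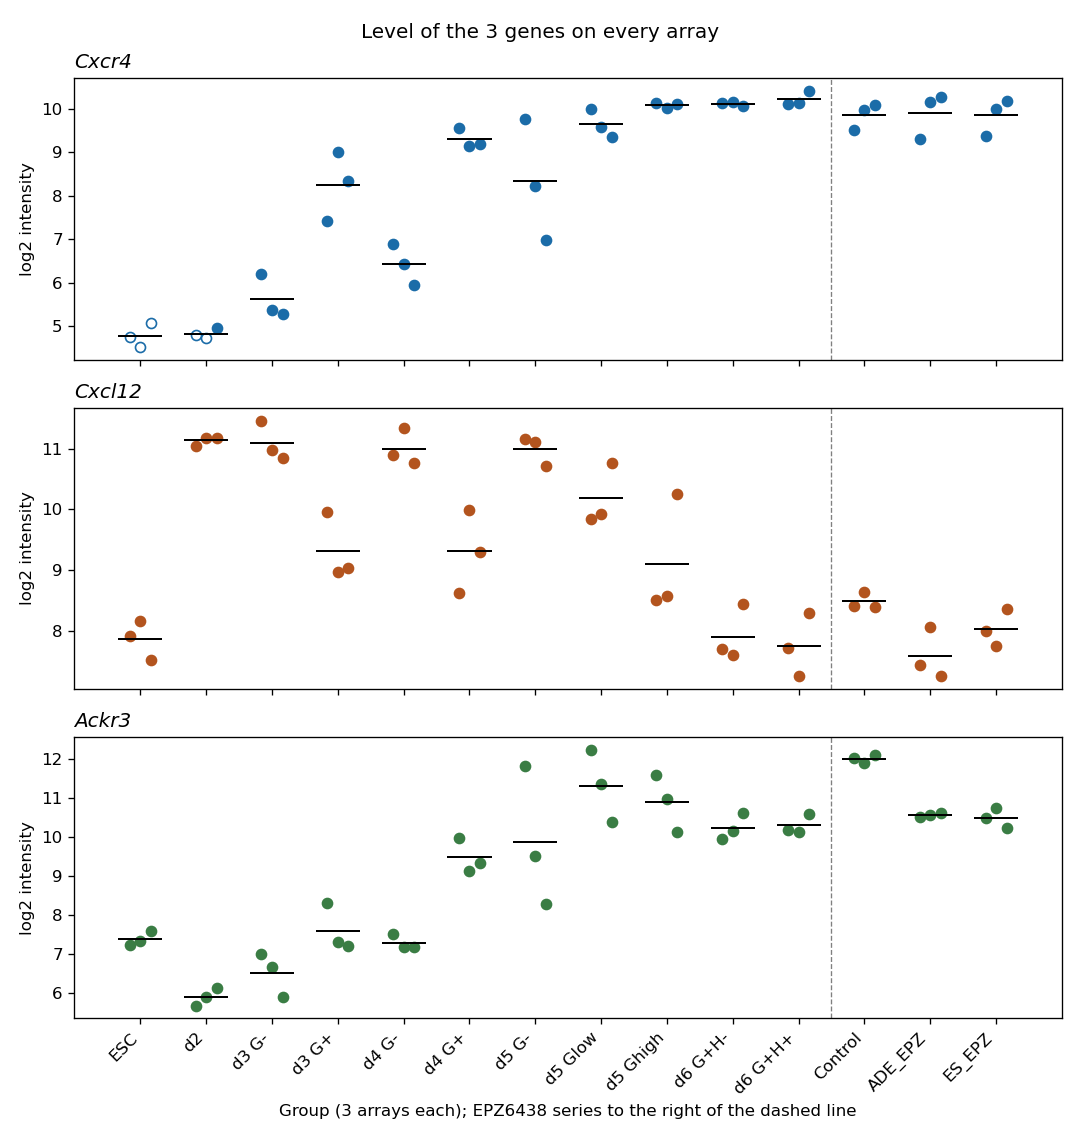
Log2 intensity of Cxcr4, Cxcl12 and Ackr3 on each of the 42 arrays by group, with a line at each group mean and open circles for arrays not well above background. Cxcr4 climbs from 4.78 in ESCs to 10.21 in d6 G+H+, Cxcl12 peaks at 11.14 in d2 and falls to 7.76, and Ackr3 peaks at 11.31 in d5 Glow. The untreated arrays and the EPZ6438 series ran on separate slides.

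Set beside all 55681 probes, calls in these genes were as follows. Against ESCs, 1 of the 3 genes was called higher at d2 (0.194% of all probes), d3 G- (0.533%) and d3 G+ (1.49%). At d4 G- (0.695%) and d4 G+ (1.61%) 2 were, and at d5 G- (1.06%) and d5 Glow (1.87%) 3 were. At d5 Ghigh (1.94%), d6 G+H- (2.8%) and d6 G+H+ (3.22%) 2 were. In these comparisons 0 of the 3 genes were called lower, where 395 (d2) to 1863 (d6 G+H+) of all probes were. The gene called at d2 and d3 G- was Cxcl12, and at d3 G+ it was Cxcr4. Between days, Cxcr4 was called higher and Cxcl12 lower from d2 to d3 G+ (1.51% of probes higher and 1.77% lower), with adjusted p = 8.49e-08 for Cxcr4, and 0 of the 3 genes were called in the other 8 day-to-day comparisons. In these the share of probes called in either direction was 0.709% from d2 to d3 G-, 0.00898% and 0.0144% from d3 to d4 in G- and G+, 0.0144% from d4 to d5 G-, 0.0593% and 0.548% from d4 G+ to d5 Glow and Ghigh, and 1.13% and 2.22% from d5 Ghigh to d6 G+H- and G+H+. The steps of Cxcr4 from d3 G+ to d4 G+ (1.05), from d4 G+ to d5 Ghigh (0.78) and from d5 Ghigh to d6 G+H+ (0.13) had adjusted p = 0.598, 0.364 and 0.911.

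The sorts asked how cells with and without Gsc expression differ within a day. At d3, Cxcr4 was 6.18-fold higher in G+ than in G- (log2 difference 2.63, SE 0.40, adjusted p = 3.99e-05) and Cxcl12 3.42-fold lower (-1.77, SE 0.37, adjusted p = 0.00188), so receptor and ligand moved in opposite directions. Here 0.372% of all probes were called higher and 0.612% lower. At d4 the differences were 2.87 for Cxcr4 (SE 0.40, adjusted p = 1.38e-05) and -1.69 for Cxcl12 (SE 0.37, adjusted p = 0.00301), beside 0.409% of probes called higher and 0.722% lower. Ackr3 was 4.53-fold higher in d4 G+ (2.18, SE 0.49, adjusted p = 0.00475), and at d3 its 3 G+ arrays lay above its 3 G- arrays by a mean of 1.08 that was not called (SE 0.49, adjusted p = 0.338). The change of the Ackr3 difference from d3 to d4 was 1.1 (SE 0.70, 95% interval -0.32 to 2.53, adjusted p = 1.0), so the days were not shown to differ. For this change 0 probes were called in limma. An unadjusted p under 0.05 was found for 1619 of 55681 probes. Same-numbered arrays deviated together in both sorts, which the fit does not use, so the count does not show that no probe differs.

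Not all of these calls held with each array left out. Those of Cxcr4 at d3 and d4 did, at 2.25 to 3.04 and 2.64 to 3.11. That of Cxcl12 at d3 was lost without d3 G- replicate 1 or d3 G+ replicate 2 or 3 (-1.63 to -1.59, adjusted p 0.0175 to 0.0237) and at d4 without d4 G- replicate 1 or 2 or d4 G+ replicate 1 or 3 (-1.74 to -1.35, adjusted p 0.0103 to 0.0604). That of Ackr3 at d4 was lost without any d4 G- replicate or d4 G+ replicate 1 or 3 (1.93 to 2.29, adjusted p 0.0127 to 0.0546). On the second Cxcl12 probe the differences were -1.26 at d3 and -1.39 at d4 (adjusted p = 0.00882 and 0.00301), of the same direction and under the size threshold. Within the slides that held both populations, the d3 differences were 3.62 and 3.04 for Cxcr4, -2.01 and -1.81 for Cxcl12 and 0.64 and 1.29 for Ackr3, and the d4 differences were 2.26 and 3.13, -0.90 and -2.71, and 1.61 and 2.78. All had the direction of the whole. The d3 slides held arrays of the same replicate number, and the d4 slides set replicate 1 of a population against replicate 2 of the other.

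At d5, Cxcl12 was 3.68-fold lower in Ghigh than in G- (log2 difference -1.88, SE 0.37, adjusted p = 0.000868) and Cxcr4 3.36-fold higher (1.75, SE 0.40, adjusted p = 0.00557), beside 0.788% of probes called lower and 0.481% higher. The call of Cxcl12 was lost without d5 Ghigh replicate 1 or 2 (-1.58 and -1.61), and the difference on its second probe was -1.47 (adjusted p = 0.00156). The call of Cxcr4 was lost without d5 G- replicate 2 or 3 or any Ghigh replicate (1.08 to 1.78, adjusted p 0.0185 to 0.109). It was also lost with the slide as a fixed block (1.66, adjusted p = 0.0146), under 75th percentile scaling (1.92, adjusted p = 0.0156), with the untreated arrays alone (adjusted p = 0.0112) and with the compared groups alone (adjusted p = 0.311), and the last also lost the call of Cxcl12 (adjusted p = 0.126). Ackr3 differed by 1.03 (SE 0.49, adjusted p = 0.31) with overlapping arrays. On the slide that held both populations the differences of Ghigh from G- were 0.25 for Cxcr4, -2.59 for Cxcl12 and -0.84 for Ackr3, the last opposite in sign to the whole. That slide set Ghigh replicate 2 against G- replicate 1. Between the arrays of replicate 2 Ackr3 differed by 1.47. For Glow against G-, 0 of the 3 genes were called, where 0.39% of probes were, with differences of 1.30 for Cxcr4, -0.81 for Cxcl12 and 1.44 for Ackr3 (adjusted p = 0.107, 0.431 and 0.175). Between Ghigh and Glow, Cxcl12 differed by -1.07 (adjusted p = 0.269) and Cxcr4 by 0.45 (adjusted p = 0.877, with no overlap), and 0.122% of probes were called. Cxcl12 was lower in Ghigh than in the Glow array of the same replicate number in 3 of 3 pairs, by -1.34, -1.35 and -0.50.

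**Figure D2:**
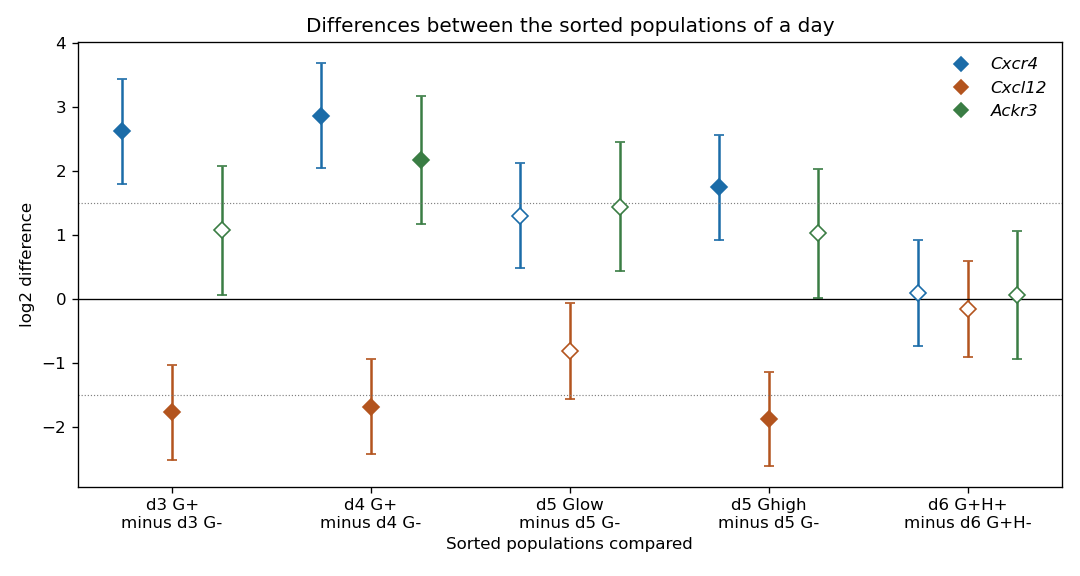
Log2 difference of Cxcr4, Cxcl12 and Ackr3 between sorted populations of a day, with 95% intervals from the fit over all arrays, filled symbols for called differences and dotted lines at the size threshold of 1.5. Cxcr4 is above 0 and Cxcl12 below 0 in all 4 comparisons by Gsc, and all 3 genes lie near 0 between d6 G+H+ and G+H-.

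The 3 arrays of d5 G- lay far apart. Cxcr4 and Ackr3 had their largest SD of the untreated groups there, 1.39 and 1.79 beside medians of 0.28 and 0.44, and replicate 1 was highest and replicate 3 lowest for both. Cxcl12 had an SD of 0.24 on the same arrays. The order of replicates was not particular to G-. Ackr3 had it in Glow (12.22, 11.34 and 10.37) and in Ghigh (11.57, 10.97 and 10.13). Cxcr4 had it in Glow (9.99, 9.57 and 9.35) but not in Ghigh (10.12, 10.02 and 10.10). Without d5 G- replicate 1, the Glow differences were 2.02 for Cxcr4 and 2.42 for Ackr3 (adjusted p = 0.000577 and 0.000318) and the Ghigh difference of Ackr3 was 2.00 (adjusted p = 0.00132), all called. These fits kept replicate 1 of Glow and Ghigh. Between arrays of the same replicate number, 1 to 3, the Glow differences were 0.22, 1.34 and 2.35 for Cxcr4 and 0.41, 1.84 and 2.09 for Ackr3. The Ghigh differences of Ackr3 were -0.24, 1.47 and 1.85. On the 3 arrays of d5 G- the mean level of 4 mesoderm markers (Mesp1, Kdr, Pdgfra and Foxf1, all above background) was 10.36, 9.48 and 8.09. Pdgfra and Foxf1 had this order, that of the receptor levels, but Mesp1 (9.72, 9.79 and 7.01) and Kdr (11.35, 10.77 and 10.97) did not. The mean of 4 markers of definitive and anterior endoderm was 7.89, 8.61 and 9.44. Of these Foxa2 and Cer1 rose with replicate number, Hhex had no such order (7.38, 7.29 and 7.74) and Sox17 fell (7.75, 7.56 and 7.02). Gsc itself was at 8.45, 8.75 and 9.80. In Glow and Ghigh the mesoderm mean also fell with replicate number (11.13, 10.74 and 10.28, and 11.18, 10.74 and 9.06). The endoderm mean rose in both (8.73, 9.35 and 11.33, and 11.57, 11.91 and 13.45). The part of these marker differences in the receptor levels was not tested.

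By d6, when Hhex was the sorted gene, the populations were alike in these genes as far as 3 arrays can show. The differences of G+H+ from G+H- were 0.10 for Cxcr4 (95% interval -0.73 to 0.92), -0.15 for Cxcl12 (-0.90 to 0.59) and 0.06 for Ackr3 (-0.94 to 1.07), each with adjusted p = 1.0. The intervals leave room for a difference of up to about that size in either direction. Of all probes 0 were called in limma at this threshold. An unadjusted p under 0.05 was found for 2514 of 55681 probes. Same-numbered arrays of these populations deviated together (correlations 0.39, 0.35 and 0.65), which the fit does not use. The count therefore does not show that no probe differs.

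Across the 11 untreated groups, the mean levels of the receptors Cxcr4 and Ackr3 correlated at 0.91 (Spearman 0.85), Cxcr4 and Cxcl12 at -0.43 (-0.55) and Cxcl12 and Ackr3 at -0.41 (-0.58). These describe 11 group means that share a time course and a normalisation. From ESCs to d2 the ligand rose while the receptor Cxcr4 stayed near background, and along the G- cells this receptor rose at an almost fixed ligand level. In the Gsc-sorted cells Cxcr4 was high and the ligand lay below its d2 level, lowest at d6, without a steady fall between.

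**Figure D3:**
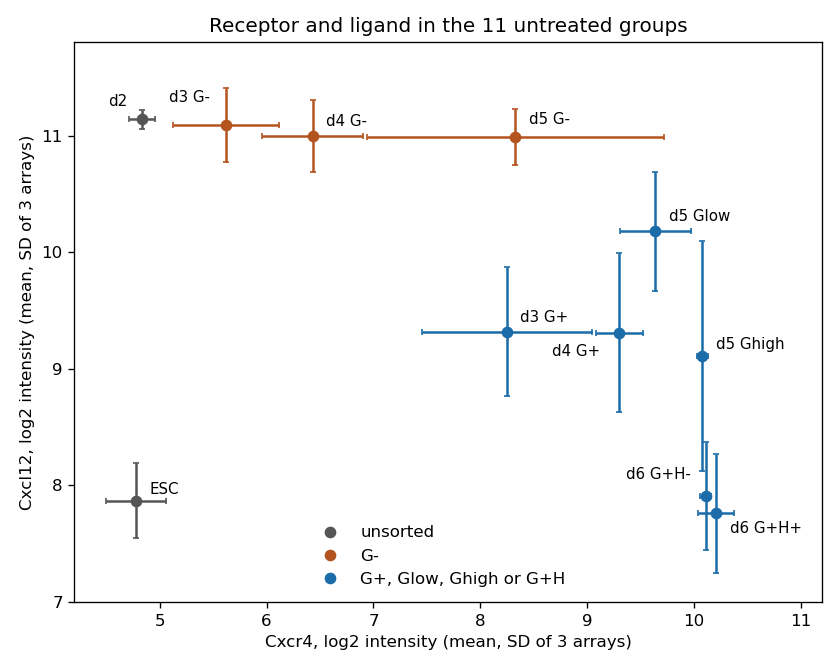
Mean log2 intensity of Cxcl12 against that of Cxcr4 in the 11 untreated groups, with SD of 3 arrays as bars and colour for unsorted, G- and Gsc-sorted cells. The d2 and G- groups lie along the top at Cxcl12 levels of 10.99 to 11.14, and d6 G+H- and G+H+ lie at the lower right with Cxcr4 at 10.11 and 10.21.

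The EPZ6438 series asked how inhibition of PRC2, during or before differentiation, changed d6 cultures. Ackr3 was at 12.01, 11.88 and 12.08 in Control, at 10.52, 10.55 and 10.61 in ADE_EPZ and at 10.47, 10.74 and 10.22 in ES_EPZ. All 6 arrays of EPZ6438-treated cultures lay more than 1 log2 unit below all 3 Control arrays. With the spread of all 42 arrays the differences were -1.43 for ADE_EPZ (SE 0.49, adjusted p = 0.0604) and -1.51 for ES_EPZ (SE 0.49, adjusted p = 0.116) and were not called, where 1.38% and 0.233% of probes were called. With the 9 arrays of this series alone the SE was 0.15 and 0.15 and the adjusted p 0.000658 and 0.00912, so that ES_EPZ was called and ADE_EPZ stayed under the size threshold. Within each of the 3 slides, which held 1 array of each regimen, the differences were -1.27, -1.56 and -1.46 for ADE_EPZ and -1.66, -1.61 and -1.27 for ES_EPZ. On each slide the Control array had another replicate number than the treated arrays. Between arrays of the same number, 1 to 3, the differences were -1.49, -1.32 and -1.47 for ADE_EPZ and -1.54, -1.14 and -1.86 for ES_EPZ.

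Cxcl12 was at 8.42, 8.65 and 8.40 in Control, 7.44, 8.06 and 7.26 in ADE_EPZ and 8.0, 7.76 and 8.36 in ES_EPZ. Both regimens lay below Control on all arrays, by -0.90 (SE 0.37, adjusted p = 0.126) and -0.45 (SE 0.37, adjusted p = 0.727), and neither difference was called. ADE_EPZ differed from ES_EPZ by -0.46 (adjusted p = 0.888), where 0.0647% of probes were called. Cxcr4 was at 9.5, 9.97 and 10.09 in Control, 9.30, 10.16 and 10.26 in ADE_EPZ and 9.38, 9.98 and 10.18 in ES_EPZ, with differences from Control of 0.05 (95% interval -0.77 to 0.88) and -0.01 (-0.83 to 0.82) and adjusted p = 0.98 and 0.999. The intervals do not show that the levels were equal, and the sign of both changed with the array left out.

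The cultures of the series differed in their markers too. Mean levels of the 4 endoderm markers were 11.64, 12.20 and 11.66 in Control, 13.18, 13.49 and 13.49 in ADE_EPZ and 12.68, 12.85 and 13.06 in ES_EPZ. Those of the 4 mesoderm markers were 9.5, 9.93 and 9.80, 8.86, 9.12 and 8.66, and 9.0, 9.54 and 8.47. Of 28 markers 3 were called in ADE_EPZ, beside 1.97% of all genes called higher and 0.801% lower. Hhex (2.23, SE 0.40, adjusted p = 0.000217) and the pluripotency gene Zfp42 (1.51, SE 0.34, adjusted p = 0.00231) were higher and Mixl1, a primitive streak gene, was lower (-3.34, SE 0.34, adjusted p = 1.24e-07). The other 3 primitive streak markers were not called and lay on both sides of Control, Gsc at 12.97 against 11.98, Lhx1 at 12.12 against 10.73 and Eomes at 12.37 against 13.78. In ES_EPZ Mixl1 was called lower too (-1.72, SE 0.34, adjusted p = 0.00565), beside 0.062% of all genes called lower. Whether a changed mix of cells had a part in the lower Ackr3 was not tested. The series was scanned with another version of the Feature Extraction software than the untreated arrays and on other slides, so its levels and those of the d6 sorts cannot be told apart from that batch and were not compared.

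**Figure D4:**
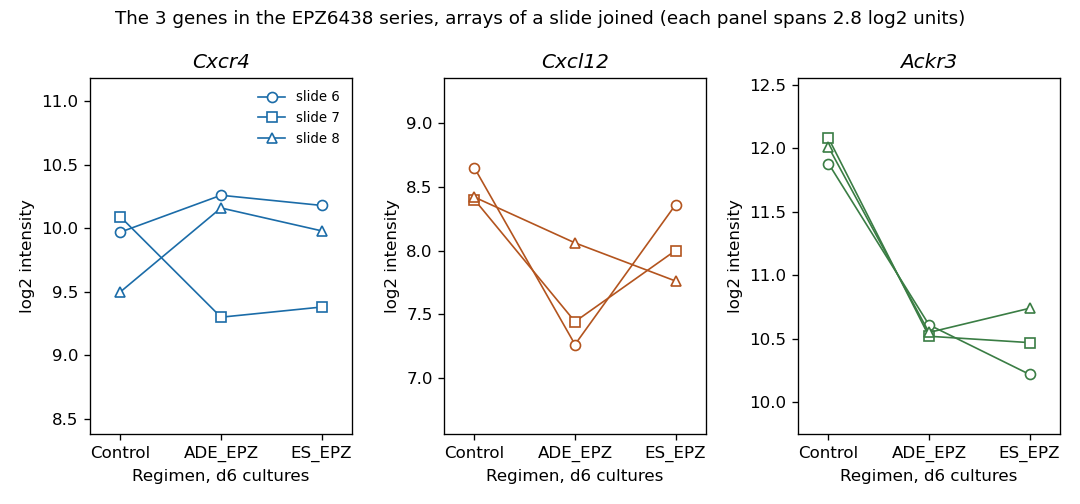
Log2 intensity of Cxcr4, Cxcl12 and Ackr3 in the Control, ADE_EPZ and ES_EPZ d6 cultures, 1 array per regimen on each of 3 slides, with arrays of a slide joined. Ackr3 drops from 11.88 to 12.08 in Control to 10.22 to 10.74 in the treated cultures on all 3 slides, while the lines of Cxcr4 cross. On each slide the Control array has another replicate number than the treated arrays. Between arrays of the same number, 1 to 3, Cxcr4 in ADE_EPZ differed from Control by -0.21, 0.19 and 0.17.

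The other genes through which this ligand and its receptors act were taken from a list of 63 genes, 62 of them on the array and 56 above background on all arrays of at least 1 group. Cxcl11, a further ligand of ACKR3, was not matched. From ESCs to d6 G+H+, 5 of the 62 rose and 5 fell (8.06% each, beside 5.79% and 5.33% of all 20972 genes), with a median difference of 0.19 beside 0.00 over all genes. Ramp3, a protein that pairs with receptors for adrenomedullin, a second ligand of ACKR3, fell from a level of 11.18 to 7.09 (-4.09, SE 0.50, adjusted p = 4.13e-08). Rgs16, an inhibitor of G protein signalling, rose from 8.03 to 11.54 (3.52, SE 0.48, adjusted p = 4.01e-07), and Rgs5, of the same family, rose from a level not above background in ESCs to 6.99, at least 5.46-fold. Mmp9, a protease that can cut CXCL12, rose by 2.51 (SE 0.57, adjusted p = 0.000723). All 8 G protein subunits, which carry the signal of CXCR4, had 0 calls, with a median of 0.49.

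At d3, 2 of the 62 genes were higher in G+ than in G- and 1 was lower (3.23% and 1.61%, beside 0.701% and 1.1% of all genes), and the median difference was 0.01, as it was over all genes. Rgs5 had a level of 4.65 in the G- cells, where a single array of the 3 was above background, and of 8.22 in the G+ cells (3.56, SE 0.47, adjusted p = 3.39e-06). Prex1, an activator of Rac downstream of G proteins, was higher by 1.55 (SE 0.22, adjusted p = 1.27e-05) and Ramp3 was lower by 2.42 in size (-2.42, SE 0.50, adjusted p = 0.00175). In ADE_EPZ against Control 2 genes were higher and 1 lower, beside 1.97% and 0.801% of all genes, with a median of 0.09 beside -0.01. They were Mmp9 (2.91, SE 0.57, adjusted p = 0.000571), Rgs2 (2.48, SE 0.61, adjusted p = 0.00544) and, lower, Rgs4 (-2.33, SE 0.51, adjusted p = 0.0019), both inhibitors of G protein signalling.

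Most other chemokine genes were at background. Of 21 other chemokine receptors on the array 7 were above background on all arrays of at least 1 group, and of 32 other ligands 11 were. At d3, 0 of the receptors and 0 of the ligands were called between G+ and G-, with medians of 0.03 and -0.05. Of all genes 0.701% were called higher there and 1.1% lower. At d4 the receptor Ccr7 was called higher in G+ (2.51, SE 0.56, adjusted p = 0.00368). The ligand Cxcl16 was called lower (-2.03, SE 0.38, adjusted p = 0.000707), beside 0.806% of all genes called higher and 1.47% lower. From ESCs to d6 G+H+ 1 receptor rose, the atypical receptor Ackr4 (level 6.57 at d6, at least 3.63-fold, adjusted p = 0.00144), and 3 ligands fell, 4.76% of the receptors beside 5.79% of all genes called higher and 9.38% of the ligands beside 5.33% called lower. These were Cxcl16 (from 8.83 to 6.28, adjusted p = 2.21e-06), Cxcl14 (from 6.46 to a level not above background, at least 3.25-fold, adjusted p = 3.07e-06), which is also counted among the 62 pathway genes, and Cxcl10 (from 7.24 to 5.61, adjusted p = 0.00731). In ADE_EPZ 1 receptor and 1 ligand were called, both lower than in Control (4.76% of the receptors and 3.12% of the ligands, beside 0.801% of all genes called lower). They were Ccr7, a receptor best known from lymphocyte homing, at 7.43 against 10.23 (-2.79, SE 0.56, adjusted p = 0.000704), and the membrane-bound ligand Cx3cl1 at 10.37 against 12.20 (-1.83, SE 0.44, adjusted p = 0.00486).

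Genes were last ranked by the correlation of their 11 untreated group means with those of each of the 3 genes, over 15353 genes above background in at least 1 untreated group. The mean profile of Cxcr4 was matched most closely by Gata4 (0.996), a transcription factor of endoderm and heart that ran from 6.17 in ESCs to 12.38 in d6 G+H+, then by Fignl2 (0.994), Adamts9 (0.99), a secreted protease, Cthrc1 (0.989), a secreted protein of the collagen matrix, and Usp3 (0.988), a ubiquitin protease. The most opposite were Zfp819 (-0.996), Ezhip (-0.995), an inhibitor of PRC2 that fell from 8.38 in ESCs to 4.83 in d6 G+H+, and Rpl10l (-0.993), a near copy of Rpl10, so that the identity of its signal is uncertain. As 544 genes had a correlation of at least 0.9 with Cxcr4 and 639 of -0.9 or below, such values were common. For Ackr3, with 191 and 143 such genes, the closest were Borcs6 (0.993), Rbms2 (0.982), Mest (0.981), an imprinted gene at 9.56 in d2 and 12.73 in d5 Ghigh, Ndufb11 (0.977) and Tnfaip2 (0.974), and the most opposite Ttc32 (-0.979), G6pdx and Macrod2 (both -0.969).

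The profile of Cxcl12 was rarer. Only 11 genes reached a correlation of 0.9 and 9 reached -0.9. The closest were Actr5 (0.953), Isyna1 (0.939), the enzyme that makes inositol phosphate from glucose phosphate, Lix1 (0.938), Mtmr9 (0.915) and Flywch1 (0.912), whose group means spanned 0.60 to 1.31 log2 units beside 3.38 for Cxcl12. The most opposite were Pdpk1 (-0.934), a kinase of the AKT pathway, Xpnpep1 (-0.925) and Plac8 (-0.920), which fell from 9.34 in ESCs to 6.65 in d2 and reached 11.10 in d6 G+H+. These rankings give the shape of a profile over group means and not its size.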

How the data were processed

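The arrays were Agilent SurePrint G3 Mouse 8x60K, 1-colour. The authors deposited scanner intensity per spot and a matrix of log2 intensity, background-corrected by normexp (offset 10) and quantile-normalised over all 42 arrays. Recomputing these log2 values from the deposited intensity columns gave a correlation of at least 0.999979 per array. Control spots were left out. Of 29123 probes with a RefSeq accession, genes were named by accession, and the brightest probe stood for a gene. Limma 3.58.1 (R 4.3.3) fitted 1 mean per group to 55681 probes on all 42 arrays, with Benjamini-Hochberg adjustment over all probes. Named genes were those called in the d3 sort, d6 G+H+ against ESCs and ADE_EPZ against Control, at most the 4 largest per list, and the 5 most like and 3 most opposite to each gene. The members and lists were chosen with earlier results of these data known. On simulated data with 200 probes raised by 2.5, the fit called 194 for d6 G+H+ against ESCs and 195 for the d3 sort. Same-numbered arrays deviated together in every pair of the d3, d4 and d6 sorts and of d3 G+ with d2 (correlation 0.25 to 0.67 in the d3 sort), which comes from the data and not from the labels, so a replicate block was tried. Other alternatives were values recomputed from the scanner files, a normexp offset of 50, no background correction, 75th percentile scaling, quantile normalisation within a series, probes above background alone, fewer arrays in the fit, the slide as a block, other probes and each array left out. Precision is limited by 3 arrays per group.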

Additional observations from a re-analysis of the deposited data

How the results depend on the processing

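Of 770 values under 12 alternatives, 734 kept their direction and their side of the threshold, and 18 lost the call, 14 gained it and 4 changed sign. The cause was not tested. With arrays of the compared groups alone, which leaves fewer arrays to estimate the spread, the d3 sort was not called for Cxcr4 (2.63, adjusted p = 0.0154) or Cxcl12 (-1.77, adjusted p = 0.0199), nor the d4 sort for Cxcl12 (-1.69, adjusted p = 0.0264). With the slide as a fixed block the d4 difference of Cxcl12 was -1.56 (adjusted p = 0.0129). On the second Cxcl12 probe the d3 and d4 differences were -1.26 and -1.39 and the d6 sort 0.03. With arrays of 1 series, Ackr3 gave 2.18 in the d4 sort (adjusted p = 0.0168, not called) and -1.51 in ES_EPZ (adjusted p = 0.00912, called). Signs turned for Cxcr4 in ADE_EPZ under 75th percentile scaling (-0.08) and for Cxcl12 in d6 G+H+ against ESCs with the slide as a fixed (0.15) or random (0.01) block. Of the 5 genes most like each gene, 2, 1 and 3 were again among them over 14 groups and 0, 0 and 2 by Spearman correlation for Cxcr4, Cxcl12 and Ackr3. With any probe of a marker, 6 rather than 3 markers were called in ADE_EPZ. With the replicate block, Ackr3 was called from d2 to d3 G+ (1.70, adjusted p = 0.00678) and from d4 G- to d5 G- (2.57, adjusted p = 0.0086), and no other call changed. The same steps of Ackr3 were called with the slide as a fixed (2.03 and 3.07) or random (1.85 and 2.81) block, and the first also under 75th percentile scaling (2.14) and with the compared groups alone (adjusted p = 0.00549). The remaining changed calls stand beside their results above.

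With 1 array left out at a time, Cxcr4 ran from 0.00 to 0.14 in the d6 sort, from -0.12 to 0.36 in ADE_EPZ and from -0.18 to 0.23 in ES_EPZ. Cxcl12 ran from -0.38 to 0.13 in d6 G+H+ against ESCs, and from -2.09 to -1.59, -2.03 to -1.35 and -0.42 to 0.11 in the d3, d4 and d6 sorts. Ackr3 ran from 1.93 to 2.35 in the d4 sort and from -0.09 to 0.25 in the d6 sort.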
